A study of Mus musculus with 53 samples.

Results

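The genes described here carry a cell through mitosis: the kinases and cyclins that start it, the spindle checkpoint, the kinetochore, the spindle motors, the cytokinesis machinery and the condensins. The list holds 45 genes, given by name and chosen with earlier results of these data known. Of these, 42 had a probe set that carried 1 gene symbol, among 12394 such genes in all, and each was measured with its probe set of highest mean. Ccnb1, Espl1 and Cdca8 had none in the gene table used here. All 42 passed the filter on low values, which asked that a gene exceed its array's median on 3 arrays or more, as did 9157 of the 12394 genes. Among the members, Cdc25c, Mad1l1 and Cenpe exceeded it on the fewest arrays, with 28, 29 and 36 of 53.

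RNA was measured in 53 T-cell lymphoma samples from mice of 15 lymphoma-prone genetic backgrounds, with 1 oligonucleotide array each. All mice were C57BL/6, no tumour was treated, and the labels call the cells T-cell lymphoblasts taken from the tumour; ages are not given in the sources used here. Transgenic backgrounds were beta-catenin (3 arrays), LMO1 (3), NUP98-HOXD13 (3), Pokemon (2), Tal1 (2), ThPOK (3), TLX1 (6), Tal1 with LMO2 (3) and LMO1 with Olig (3, whose genotype label reads olig1 and whose titles read olig2). Knockout or mutant backgrounds were E2A (2), Rag with E2A (2), p53 (3), Cdkn2a after retroviral insertional mutagenesis (9) and Ikaros Plastic (3). The last background combined the TLX1 transgene with RUNX heterozygosity (TLX1 with RUNX, 6 arrays), and its tumours are labelled TLX1 negative. The labels name no promoter for any transgene, do not say that the arrays of a background come from separate animals, and give no normal thymus. P-values therefore weigh differences against the variation among these arrays alone, and that may be technical.

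Levels below are log2 of the intensity, and a difference of 1 is a 2-fold change. Array medians ran from 377 to 589.6 on the linear scale. The T lineage markers, such as Cd3e and Zap70, averaged between 10.33 and 12.27 on 52 of the 53 arrays. On p53 knockout replicate 2 they averaged 9.04, the lowest value, and the stromal and endothelial markers averaged 12.17, the highest. The bacterial control probe sets, which match no mouse gene, divided the arrays into 4 sets. These were 38 arrays of 13 backgrounds (the largest set), the 6 TLX1 arrays with p53 knockout replicates 1 and 2, the 6 TLX1 with RUNX arrays, and Tal1 with LMO2 replicate 2 alone. A difference between TLX1 or TLX1 with RUNX tumours and most other tumours therefore coincides with a difference in array set, and the 2 cannot be told apart. Comparisons inside the largest set stay within 1 array set, but array medians differ there by background. Beta-catenin (0.18), Ikaros plastic (0.17), Cdkn2a knockout (0.14) and ThPOK (0.11) arrays had higher medians (log2) than the other backgrounds of that set. The remaining backgrounds had lower ones.

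In a dividing cell, cyclin-dependent kinase 1 with its cyclins and the Polo and Aurora kinases condense the chromosomes and build the spindle. The spindle checkpoint (Mad and Bub proteins, with the kinase Ttk) then holds the anaphase-promoting complex back until every kinetochore is attached to microtubules. Most of these genes are transcribed late in the cell cycle, so their RNA in a tissue follows the share of cycling cells, and lymphoblastic tumours are known for a high share. In a bulk sample, fewer cycling cells and less RNA per cell cannot be told apart.

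Most members differed among the 15 backgrounds, but no more often than other genes. By limma's moderated F test, 30 of 42 members (71.4%) passed an adjusted p of 0.05, against 89.2% of all genes tested. Within the largest array set, 26 of 42 members (61.9%) passed, against 78.1% of all genes. The same 20 members passed in both sets of arrays and 6 passed in neither. Over the 15 background means, the SD of a member had a median of 0.316 log2 units, and that of all genes tested a median of 0.315.

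By role, the F test over the 15 backgrounds called 5 of 5 kinetochore genes, 6 of 6 genes of the midzone and cytokinesis, 5 of 6 spindle checkpoint genes and 3 of 3 anaphase control genes. The same test called 89.2% of all genes, near the shares of these roles. It called 3 of 7 mitotic kinases and cyclins, 2 of 3 chromosomal passenger genes, 4 of 7 spindle assembly genes and 2 of 5 chromosome condensation genes. Among the members not called were Cdk1, the kinase at the centre of mitotic entry (adjusted p = 0.0651), its partners Ccna2 (0.0665) and Ccnb2 (0.0836), and Plk1, the Polo kinase (0.107). Top2a, the topoisomerase that untangles sister DNA (adjusted p = 0.382), and Ncapd2, a condensin subunit (0.425), were not called either. The called members with the largest SD of background means were Cenpe, the kinetochore motor (0.476), Mad1l1, which recruits Mad2l1 to unattached kinetochores (0.429), and Racgap1, a centralspindlin subunit (0.423). They were followed by Pttg1 (securin, 0.401), Kif11 (0.400), Smc4 (0.386), Bub1 (0.383), Mad2l1 (0.382), Kif20a (0.379) and Nusap1 (0.360).

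**Figure D1:**
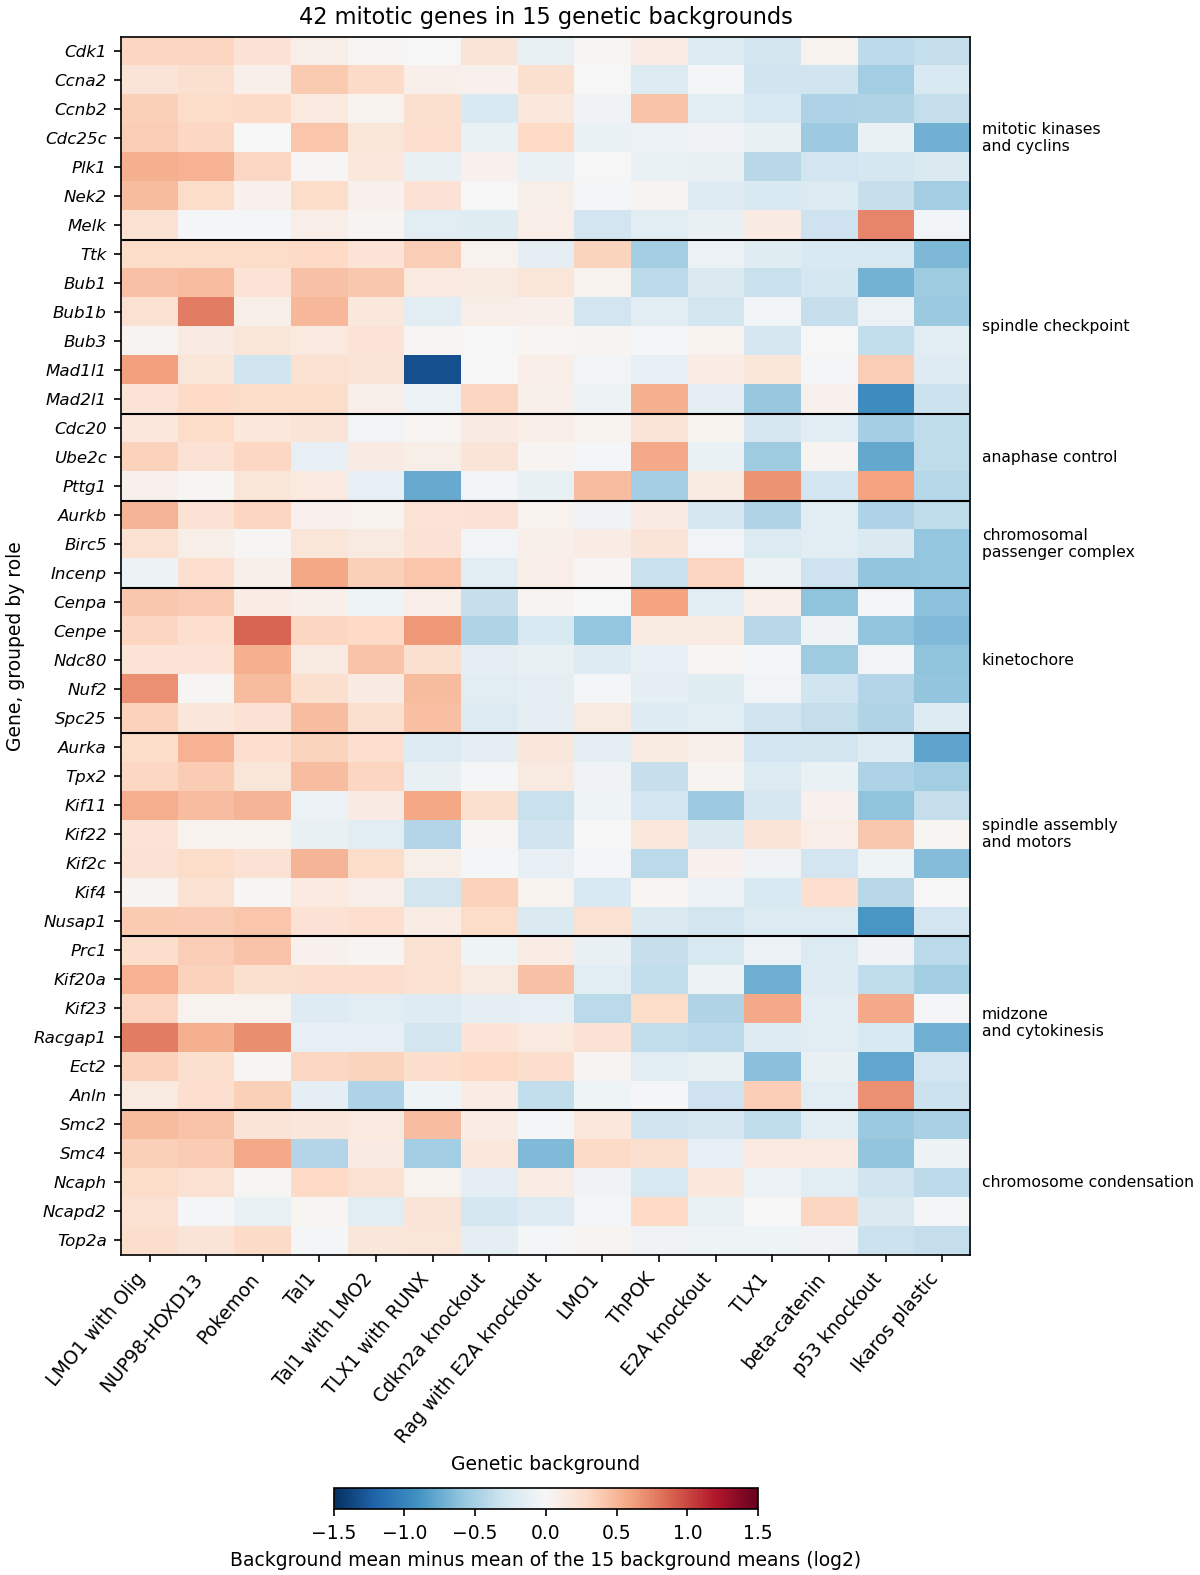
Mean of each background minus the mean of the 15 background means (colour, log2) for the 42 genes, grouped by role, with backgrounds ordered by their mean over the genes. LMO1 with Olig lies above the mean for 41 of 42 genes and Ikaros plastic for 2 of 42; Mad1l1 and Pttg1 stand out as low in TLX1 with RUNX.

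To describe the genes jointly, each was centred on its own mean over the 53 arrays and the 42 values were averaged per array; this average is given with no test. The background means ran from 0.33 ± 0.26 (SD, n = 3) in LMO1 with Olig tumours to −0.38 ± 0.44 (n = 3) in Ikaros plastic tumours. NUP98-HOXD13 (0.28 ± 0.11, n = 3), Pokemon (0.23 ± 0.075, n = 2), Tal1 (0.18 ± 0.048, n = 2) and Tal1 with LMO2 (0.13 ± 0.13, n = 3) followed the highest. TLX1 with RUNX (0.056 ± 0.19, n = 6), Cdkn2a knockout (0.017 ± 0.29, n = 9), Rag with E2A knockout (0.0048 ± 0.21, n = 2) and LMO1 (−0.011 ± 0.097, n = 3) lay near 0. ThPOK (−0.041 ± 0.21, n = 3), E2A knockout (−0.097 ± 0.21, n = 2), TLX1 (−0.14 ± 0.29, n = 6), beta-catenin (−0.16 ± 0.15, n = 3) and p53 knockout (−0.26 ± 0.73, n = 3) lay below. Neighbours in this order were 0.012 to 0.13 apart, and the pooled SD within backgrounds was 0.288, so no background differed from its neighbour beyond the spread.

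Single arrays spread more than the backgrounds did. The lowest were p53 knockout replicate 2 (−1.07, with 5 of 42 genes above their own mean), Ikaros plastic replicate 2 (−0.89, with 0 of 42), Cdkn2a knockout replicate 8 (−0.69, with 2 of 42) and TLX1 replicate 5 (−0.60, with 4 of 42). The highest was LMO1 with Olig replicate 1 (0.62, with 42 of 42). The other p53 knockout arrays lay at −0.050 and 0.35, the other Ikaros plastic arrays at −0.11 and −0.14, and the other LMO1 with Olig arrays at 0.16 and 0.20. In each of these 3 backgrounds 1 array therefore lay well away from the rest.

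**Figure D2:**
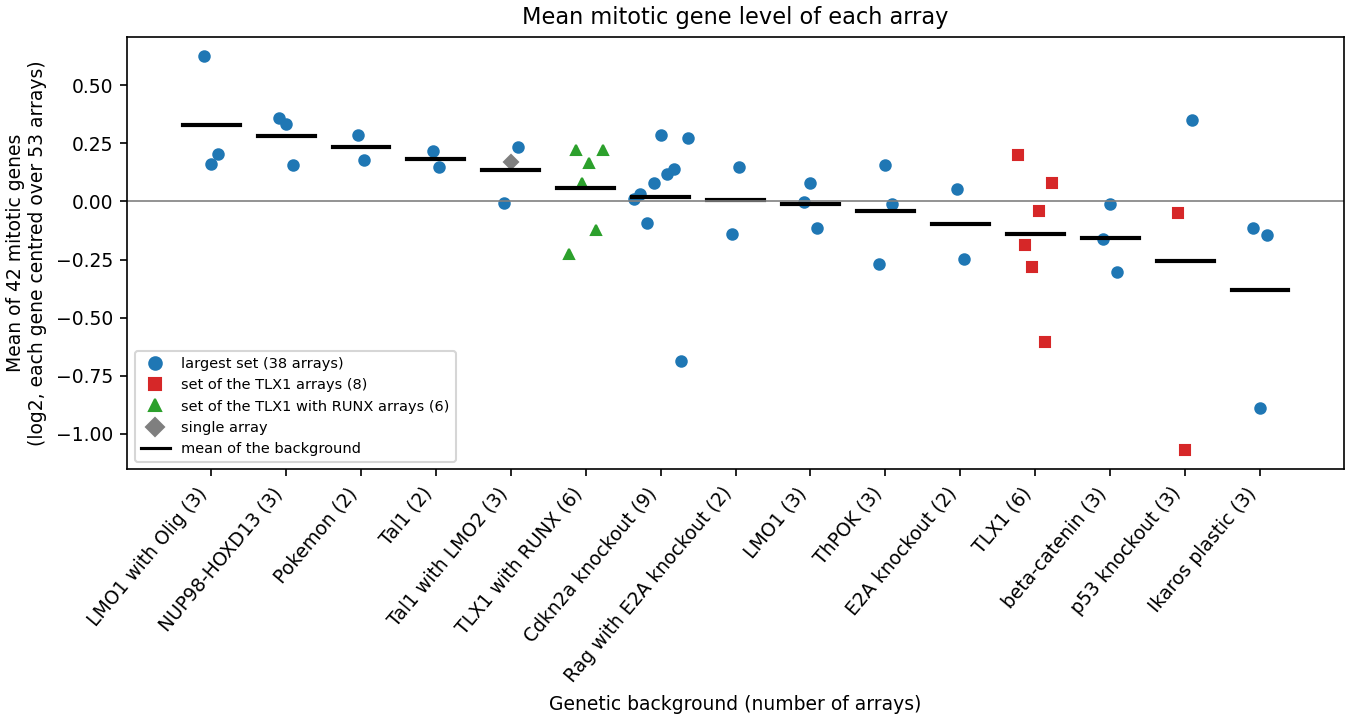
Mean over the 42 genes of log2 levels centred per gene (y axis) for each of the 53 arrays, by background (x axis); colour and shape give the array set and bars the background mean. 4 arrays lie at −0.60 or lower, and p53 knockout spans −1.07 to 0.35.

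Other readings moved with these low arrays. The average of 34 DNA replication genes, centred the same way, was −1.19 on p53 knockout replicate 2, −0.83 on Ikaros plastic replicate 2 and −0.48 on Cdkn2a knockout replicate 8. The epithelial markers (Epcam and 4 keratins) averaged 11.47 on Ikaros plastic replicate 2, the highest of the 53 arrays, and 10.20 on Cdkn2a knockout replicate 8, the next highest. The title of Cdkn2a knockout replicate 8 names pim1 and ccnd3, where those of the others name myc, ras or myb. On TLX1 replicate 5 the 3' over 5' ratio of beta-actin probe sets, a measure of RNA integrity, was 2.17 log2 units, the highest in its background, but it was 2.15 on TLX1 replicate 6, whose mitotic average was 0.078. The part of these readings in the mitotic levels was not tested.

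Members did not all follow the rest. Tpx2, the activator of Aurora A, lay on the same side of its mean as the median of the other centred members on 49 of 53 arrays, and Ccna2, Ndc80 and Kif2c on 47. Kif22, a chromosome-bound kinesin, did so on 21, Kif23, the kinesin subunit of centralspindlin, on 25, Smc4, a condensin core subunit, on 28, and Ncapd2 on 29. Melk, Mad1l1 and Pttg1 did so on 31. Kif22, Kif23, Smc4 and Pttg1 each have several probe sets that disagree, as given below.

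Ikaros plastic tumours had the lowest mitotic levels of the 13 backgrounds in the largest array set. Each background was compared there with the mean of the other background means. In Ikaros plastic tumours 26 of 42 members were lower and 0 higher by limma's test (adjusted p of 0.05), against 14.9% of all genes lower and 25.1% higher. Without adjustment 31 members had a p under 0.05, a count not made for all genes. In all, 41 of 42 members were below the others, with a median difference of −0.48, where the median over all genes was 0.048. The calls took in 5 of 6 checkpoint genes, 3 of 3 anaphase control genes, 3 of 3 passenger genes, 3 of 5 kinetochore genes and 4 of 6 genes of the midzone and cytokinesis. They also took in 3 of 7 kinases and cyclins, 3 of 7 spindle genes and 2 of 5 condensation genes. The probe set used for the passenger gene Incenp gave −0.65, and its other probe sets gave −0.41 and 0.44.

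Aurka, the Aurora A kinase of the spindle poles, read 10.22, 9.38 and 10.22 on Ikaros plastic replicates 1 to 3, a difference of −0.96 (SE 0.20, adjusted p = 0.000441). Racgap1 read 10.33, 9.94 and 10.30, a difference of −0.89 (SE 0.19, adjusted p = 0.000607). Cdc25c, the phosphatase that activates Cdk1, read 8.49, 7.92 and 8.34, a difference of −0.81 (SE 0.18, adjusted p = 0.000896). Replicate 2 was the lowest for all 3 genes, and replicates 1 and 3 lay close together. Among checkpoint genes the kinase Ttk read 8.98, 8.43 and 8.96 (difference −0.76, adjusted p = 0.000298) and Bub1b, which with Mad2l1 inhibits Cdc20, read 10.99, 10.42 and 10.98 (difference −0.67, adjusted p = 0.00378). All Cdc25c and Ttk values given here lay below the medians of these arrays (9.01 to 9.15). Kif22 was the 1 member not below the others (0.036), but its other probe sets gave −0.67 and −0.98.

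Ikaros plastic replicate 2 decided most of these calls. Without it 5 members were called lower (Racgap1 by −0.77, Aurka by −0.68, Cdc25c by −0.65, Ttk by −0.58 and Pttg1 by −0.56), all among the 26, against 4.23% of all genes lower. All 26 kept their direction, and the median member difference was −0.25. On all 3 Ikaros plastic arrays, 33 of 42 members lay below the mean of the other backgrounds. The share of all genes that did so was not counted, so the 33 cannot be set against it. With all 3 arrays, 4 of 5 epithelial markers, 7 of 10 myeloid markers, 4 of 8 stromal and endothelial markers and 3 of 6 B lineage markers were higher. Without replicate 2 these counts were 1, 6, 2 and 1. Of 10 T lineage markers 1 was higher either way and 0 were lower. The part of these markers in the mitotic differences was not tested.

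Genes of related lists were called lower as well, with all 3 arrays. Of 18 other kinetochore genes, 9 were lower in Ikaros plastic tumours, including Ska1 (−0.82), Cenpn (−0.77) and Cenpk (−0.73). Also lower were 7 of 13 other spindle and cytokinesis genes (Dlgap5, −0.78; Tacc3, −0.71), 6 of 10 condensin and cohesin genes (Ncapg, −0.76), and 7 of 13 genes of the anaphase-promoting complex (Cdc23, −0.66). So were 4 of 8 other mitotic entry genes (Cks1b, −0.69) and 20 of 34 DNA replication genes (Cdc6, −1.05; Gins1, −0.93; Gmnn, −0.82). Of 9 regulators of mitotic gene transcription, 4 were lower, among them Rbl1 (−0.67) and Mybl2 (−0.63), and E2f4 was higher (0.51). Without replicate 2 the counts of lower genes in these lists were 1, 1, 1, 2, 1, 1 and 0, in the order named, where 4.23% of all genes were lower.

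LMO1 with Olig tumours had the highest median member difference of the backgrounds with 2 or more arrays in the largest set; the lone p53 knockout array there had a higher one (0.30). In LMO1 with Olig tumours 6 members were higher and 0 lower, against 4.2% of all genes higher and 14.3% lower, and 40 of 42 members were above the others, with a median of 0.27 against −0.081 for all genes. On all 3 arrays, 23 of 42 members were above the mean of the other backgrounds and 0 below, a count not made for all genes. Nuf2, which with Ndc80 binds microtubules at the kinetochore, read 11.40, 10.79 and 10.51 on replicates 1 to 3, a difference of 0.74 (SE 0.18, adjusted p = 0.00474). Racgap1 read 12.17, 11.23 and 11.65, a difference of 0.72 (SE 0.19, adjusted p = 0.00904). Mad1l1 read 9.64, 9.94 and 9.22, a difference of 0.51 (SE 0.12, adjusted p = 0.00485). Replicate 1 was the highest for Nuf2 and Racgap1 but not for Mad1l1.

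The other members called in LMO1 with Olig tumours were Nek2, a centrosome kinase (0.48), Smc2 (0.47) and Kif22 (0.23). Without replicate 1, Mad1l1 was the only one of the 6 still called (0.49, adjusted p = 0.0351); all 6 kept their direction, and the median member difference was 0.13. Among related lists, 5 of 18 other kinetochore genes were higher, including Dsn1 (0.88), Cenpq (0.64) and Cenpf (0.61). So were 3 of 10 condensin and cohesin genes (Ncapg2, 0.75) and 1 of 13 other spindle and cytokinesis genes (Dlgap5, 0.54). Without replicate 1 these lists had 2, 0 and 1 genes higher, and 1 kinetochore gene was lower, where 2.85% of all genes were higher and 7.82% lower. Of 34 DNA replication genes, 0 were called in either direction, with a median difference of 0.18. T lineage markers were called in 0 of 10 cases.

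**Figure D3:**
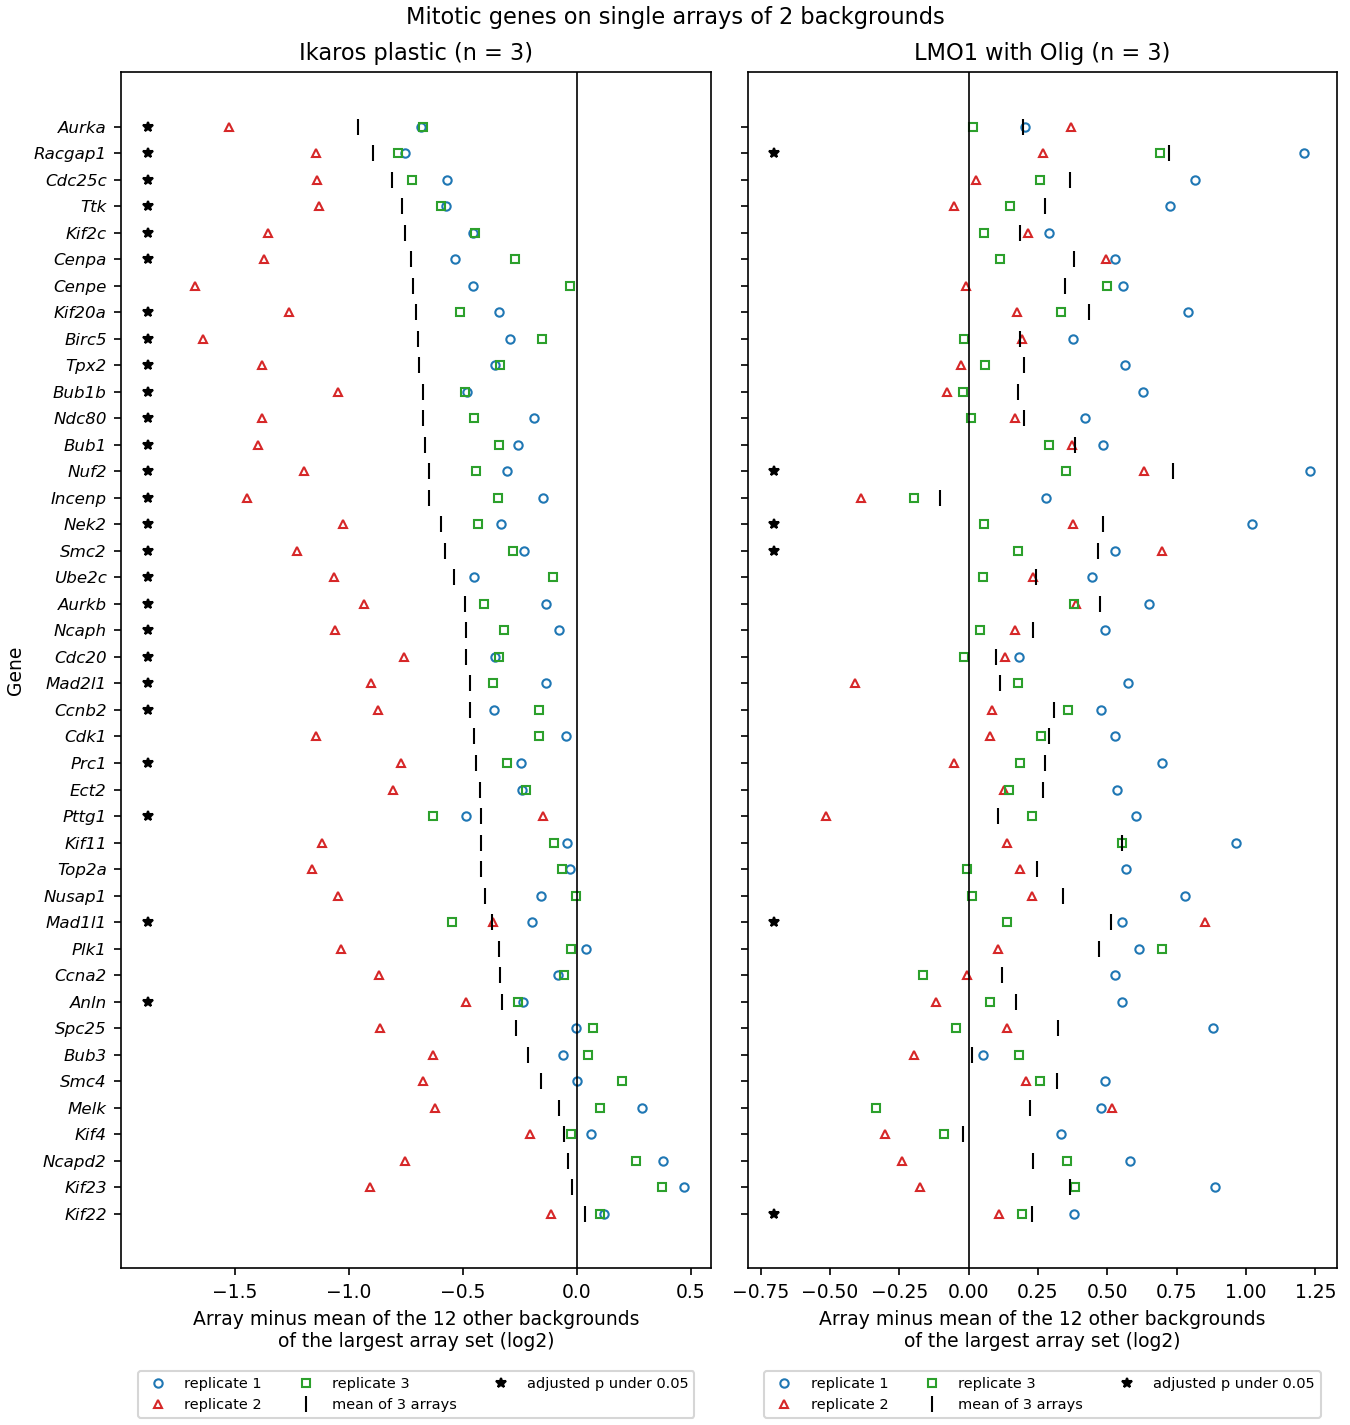
Each array of Ikaros plastic (left) and LMO1 with Olig (right) minus the mean of the 12 other backgrounds of the largest array set (log2, x axis) for the 42 genes (y axis); bars are means of the 3 arrays and stars mark an adjusted p under 0.05 by limma. Replicate 2 (triangles) lies lowest for most genes on the left, and replicate 1 (circles) highest for most on the right.

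In beta-catenin tumours 7 members were lower and 0 higher, against 15.7% of all genes lower and 26.2% higher. Cenpa, the histone of the centromere, read 10.75, 10.57 and 10.14 (difference −0.72, SE 0.18, adjusted p = 0.0023), and Cdc25c and Ndc80 differed by −0.61 and −0.60. Without replicate 3, which was lowest for Cenpa, 0 members were called, against 20.9% of all genes higher and 8.56% lower, and the 7 kept their direction. B lineage markers were higher in beta-catenin tumours in 6 of 6 cases (median 0.99), and their average of 9.33 was the highest of the 15 backgrounds. The part of these markers in the mitotic differences was not tested.

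ThPOK tumours moved both ways, with 4 members higher and 7 lower, against 23.1% of all genes higher and 12% lower. Cenpa read 11.53, 11.85 and 11.71 (difference 0.59, SE 0.18, adjusted p = 0.0137), the reverse of its direction in beta-catenin tumours. Ube2c, the ubiquitin-conjugating enzyme of the anaphase-promoting complex (0.49), and Mad2l1 (0.47) were higher too. Ttk read 8.73, 9.27 and 8.87 (difference −0.59, SE 0.15, adjusted p = 0.00364), and Bub1 and Kif20a differed by −0.54 and −0.53. Of the members of the spindle checkpoint, Mad2l1 was thus higher while Ttk and Bub1 were lower. Without replicate 1, 4 members were higher and 1 lower, against 15.8% and 7.51% of all genes. Without replicate 2, 0 were higher and 4 lower, against 13.9% and 7.39%. After centring of the arrays on their medians, 0 were higher and 10 lower, against 15.3% and 18.5%. Of 10 myeloid markers 8 were higher in ThPOK tumours (median 0.86), and their average of 10.91 was the highest of the 15 backgrounds. Their part in the mitotic differences was not tested.

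In Cdkn2a knockout tumours 2 members were higher and 5 lower, against 32.7% and 18.7% of all genes. Kif4, a chromokinesin, ran from 10.18 to 10.68 (median 10.42), a difference of 0.32 (SE 0.065, adjusted p = 0.000184). Cenpe ran from 7.65 to 9.46 (median 9.01), a difference of −0.50 (adjusted p = 0.0476), and Cenpa differed by −0.43. Without replicate 8, which was lowest for Kif4 and Cenpe, 7 members were higher, including Cdk1, Aurkb and Kif11, and 2 were lower (Ccnb2 and Cenpa), against 31.6% and 18.4% of all genes. After that centring, 1 was higher and 14 lower, against 20.6% and 34.6%. Of the markers, 5 of 10 T lineage genes were lower (median −0.44), and 7 of 10 myeloid, 3 of 6 B lineage and 4 of 8 stromal and endothelial genes were higher. What part these had was not tested.

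Few members were called in the remaining backgrounds. The 1 p53 knockout array of the largest set (replicate 3) had 3 members higher and 0 lower, against 6.39% and 7.91% of all genes: Melk (1.17), Cenpa (0.97) and Mad1l1 (adjusted p = 0.00153), with a lone array assumed to vary like the others. LMO1 tumours had Pttg1, which holds separase inactive, higher (12.15, 12.67 and 12.41; difference 0.55, adjusted p = 0.00746) and Kif4 lower (−0.30), against 6.15% and 18.1% of all genes. Another probe set of Pttg1 gave −0.11 there. NUP98-HOXD13 tumours had Bub1b higher by limma (12.23, 11.83 and 12.30, a difference of 0.76, adjusted p = 0.0129), against 1.45% of all genes. In these tumours 27 of 42 members lay above the others on all 3 arrays, a count not made for all genes. Smc4 was lower in Rag with E2A knockout tumours (11.85 and 11.96; difference −0.79, adjusted p = 0.00528), as was Kif22 (−0.31), against 5.7% of all genes. It was also lower in Tal1 tumours (12.22 and 12.03; difference −0.55, adjusted p = 0.0403), against 2% of all genes.

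E2A knockout, Pokemon and Tal1 with LMO2 tumours had 0 members called by limma. Without adjustment, 4, 8 and 2 members had a p under 0.05, counts not made for all genes. Cenpe read 10.14 and 10.13 in Pokemon tumours, the highest background mean, and this was not called. Summed over the 13 backgrounds of the largest set, 17 of 546 member calls were higher (3.11%) and 49 lower (8.97%), against 10.5% and 9.26% for all genes.

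The labels also set TLX1 tumours apart from the rest, so the 6 TLX1 arrays were compared with the 41 arrays of the 13 other backgrounds. Against those, 2 members were higher and 7 lower by limma's test, where 18.8% of all genes were higher and 13.2% lower. The median member difference was −0.21 against 0.027 for all genes, and 11 of 42 members were above the others. Pttg1 ran from 12.31 to 13.26 (median 12.50) in TLX1 tumours and from 11.31 to 12.98 (median 11.94) in the others, and differed by 0.68 (SE 0.16, adjusted p = 0.00106). Kif23 ran from 10.96 to 11.81 (median 11.37) against 9.89 to 11.65 (median 10.70), a difference of 0.60 (SE 0.16, adjusted p = 0.00441). Both groups overlapped for both genes, and the lowest TLX1 value lay above the median of the others. The other probe sets of Pttg1 gave −0.71 and −0.12, and those of Kif23 gave 0.94 and −0.18.

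Kif20a, a kinesin of the central spindle, ran from 8.28 to 9.51 (median 9.08) in TLX1 tumours and from 8.22 to 10.66 (median 9.86) in the others. The difference was −0.76 (SE 0.21, adjusted p = 0.00365). Ect2, which activates RhoA for cytokinesis, ran from 9.49 to 10.40 (median 10.20) against 8.85 to 11.71 (median 10.88), a difference of −0.68 (SE 0.20, adjusted p = 0.00692). All TLX1 values of Kif20a and Ect2 lay below the median of the others, within their range. Also lower were Mad2l1 (−0.64), Ube2c (−0.59), Aurkb, the kinase of the passenger complex (−0.49), Kif4 (−0.32) and Bub3 (−0.26).

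These TLX1 calls were lost inside the array set. Against the 2 p53 knockout arrays that share it, 0 of 42 members and 0 of all 9157 genes were called. Without adjustment 6 members had a p under 0.05 by limma's test, a count not made for all genes. There 38 of 42 members were above those arrays, with a median of 0.44. All 7 lower members turned positive, for example Mad2l1 to 0.73, Ube2c to 0.80, Ect2 to 0.58 and Kif20a to 0.22, and Pttg1 turned to −0.22. The second of the 2 p53 knockout arrays is the one with few T lineage transcripts. Without it the median was −0.11. Of the 7 lower members, Mad2l1 (0.044), Ube2c (0.83) and Bub3 (0.060) were then still above 0. Ect2, Kif20a, Aurkb and Kif4 were then below 0. In the comparison with all 41 arrays, lower calls numbered 3 without TLX1 replicate 5 (10.6% of all genes) and 11 without p53 knockout replicate 2 (15.7%). The beta-actin ratio was 1.39 ± 0.62 (SD, n = 6) in TLX1 tumours; with it as a covariate 0 members were called.

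In related lists, TLX1 tumours had 4 of 18 other kinetochore genes lower (Ska2, −0.69) and 4 of 13 other spindle and cytokinesis genes lower (Kif18a, −0.91; Kpna2, −0.63). Stag1, a cohesin subunit (−0.76), and Cdc27, a subunit of the anaphase-promoting complex (−0.69), were lower. Of 34 DNA replication genes 3 were lower (Rfc3, −1.15) and 1 higher (Fen1, 0.54), a smaller share than the 13.2% and 18.8% of all genes. Cdc16 of the anaphase-promoting complex (0.42) and the MuvB subunit Lin37 (0.43) were higher, and E2f4 (−0.49), Rbl1 (−0.65) and the mitotic entry kinase Mastl (−0.29) were lower. T lineage markers were called in 0 of 10 cases and B lineage markers in 0 of 6. Higher were Csf1r (1.05) and Cd14 (0.54) of 10 myeloid markers, Hba-a1 of 4 erythroid (1.16), Krt18 of 5 epithelial (1.24) and Vwf of 8 stromal and endothelial markers (0.84), the last list with a median of 0.77. Their part in the member differences was not tested.

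TLX1 with RUNX tumours were compared with TLX1 tumours, from which their genotype labels differ by RUNX heterozygosity. The groups lie in different array sets, so genotype and array set cannot be told apart in any difference below. The TLX1 with RUNX tumours are also labelled TLX1 negative. Of 42 members 18 were higher and 5 lower, against 17.9% of all genes higher and 36.3% lower. The median member difference was 0.29 against −0.12 for all genes, and 32 of 42 members were above. Called higher were 3 of 7 kinases and cyclins, 4 of 6 checkpoint genes, 3 of 3 passenger genes and 3 of 5 kinetochore genes, and fewer in the other roles. The probe set used for the passenger gene Incenp gave 0.49, and its other probe sets gave 0.22 and −0.69. The array medians differed by −0.37 log2 units between the groups; with each array centred on its median, 30 members were higher and 3 lower, against 42.2% and 22.4% of all genes, and the median was 0.67.

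Cenpe ran from 9.58 to 10.13 (median 9.93) in TLX1 with RUNX tumours and from 8.14 to 9.81 (median 8.64) in TLX1 tumours, a 2.11-fold difference (1.07 log2, SE 0.25, adjusted p = 0.00279). Kif20a ran from 9.50 to 10.34 (median 10.11) against 8.28 to 9.51 (median 9.08), a difference of 0.96 (SE 0.20, adjusted p = 0.00134). The groups overlapped for Cenpe and at the edge for Kif20a. The Cenpe median in TLX1 tumours lay below the medians of those arrays (8.91 to 9.07). Ect2 ran from 10.74 to 11.28 (median 10.97) against 9.49 to 10.40 (median 10.20), a difference of 0.89 (SE 0.16, adjusted p = 0.000308). Smc2, a condensin core subunit, ran from 11.79 to 12.06 (median 12.05) against 10.78 to 11.57 (median 11.18), a difference of 0.84 (SE 0.13, adjusted p = 0.00014). For Ect2 and Smc2 every TLX1 with RUNX tumour lay above every TLX1 tumour, as for 8.29% of all genes. The other members of largest rise were Kif11, the motor that separates the spindle poles (0.84), Spc25 of the NDC80 complex (0.75), Aurkb (0.66) and Ube2c (0.62).

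5 members went the other way (11.9%), and none of them overlapped between the groups; 27.3% of all genes likewise had every TLX1 with RUNX array below every TLX1 array. Mad1l1 ran from 7.57 to 7.74 (median 7.68) in TLX1 with RUNX tumours and from 8.98 to 9.40 (median 9.15) in TLX1 tumours, and differed by −1.50 (SE 0.087, adjusted p = 2.15e-08). These were the 6 lowest Mad1l1 values of the 53 arrays, and all lay below the medians of their arrays (8.56 to 8.66). The size of a difference that reaches such low values is uncertain. Pttg1 ran from 10.87 to 11.62 (median 11.17) against 12.31 to 13.26 (median 12.50), a difference of −1.43 (SE 0.18, adjusted p = 2.03e-05). Kif23 (−0.76), Smc4 (−0.66) and Kif22 (−0.64) were also lower. With each array centred on its median, Mad1l1 (−1.13), Pttg1 (−1.06) and Kif23 (−0.38) were still called, and Smc4 and Kif22 were not.

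Probe sets of 4 of these 5 genes disagreed. The other probe sets of Pttg1 gave −0.093 and −0.31, those of Smc4 gave 1.09 and 0.45, those of Kif22 gave −0.29 and 0.12, and those of Kif23 gave −1.31 and 0.88. Mad1l1 had 1 probe set. For Smc4, Kif22 and Kif23 the sign of the difference therefore depended on the probe set, and for Pttg1 its size did. The other probe sets of Kif23 exceeded the array median on only 2 and 6 of 53 arrays.

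**Figure D4:**
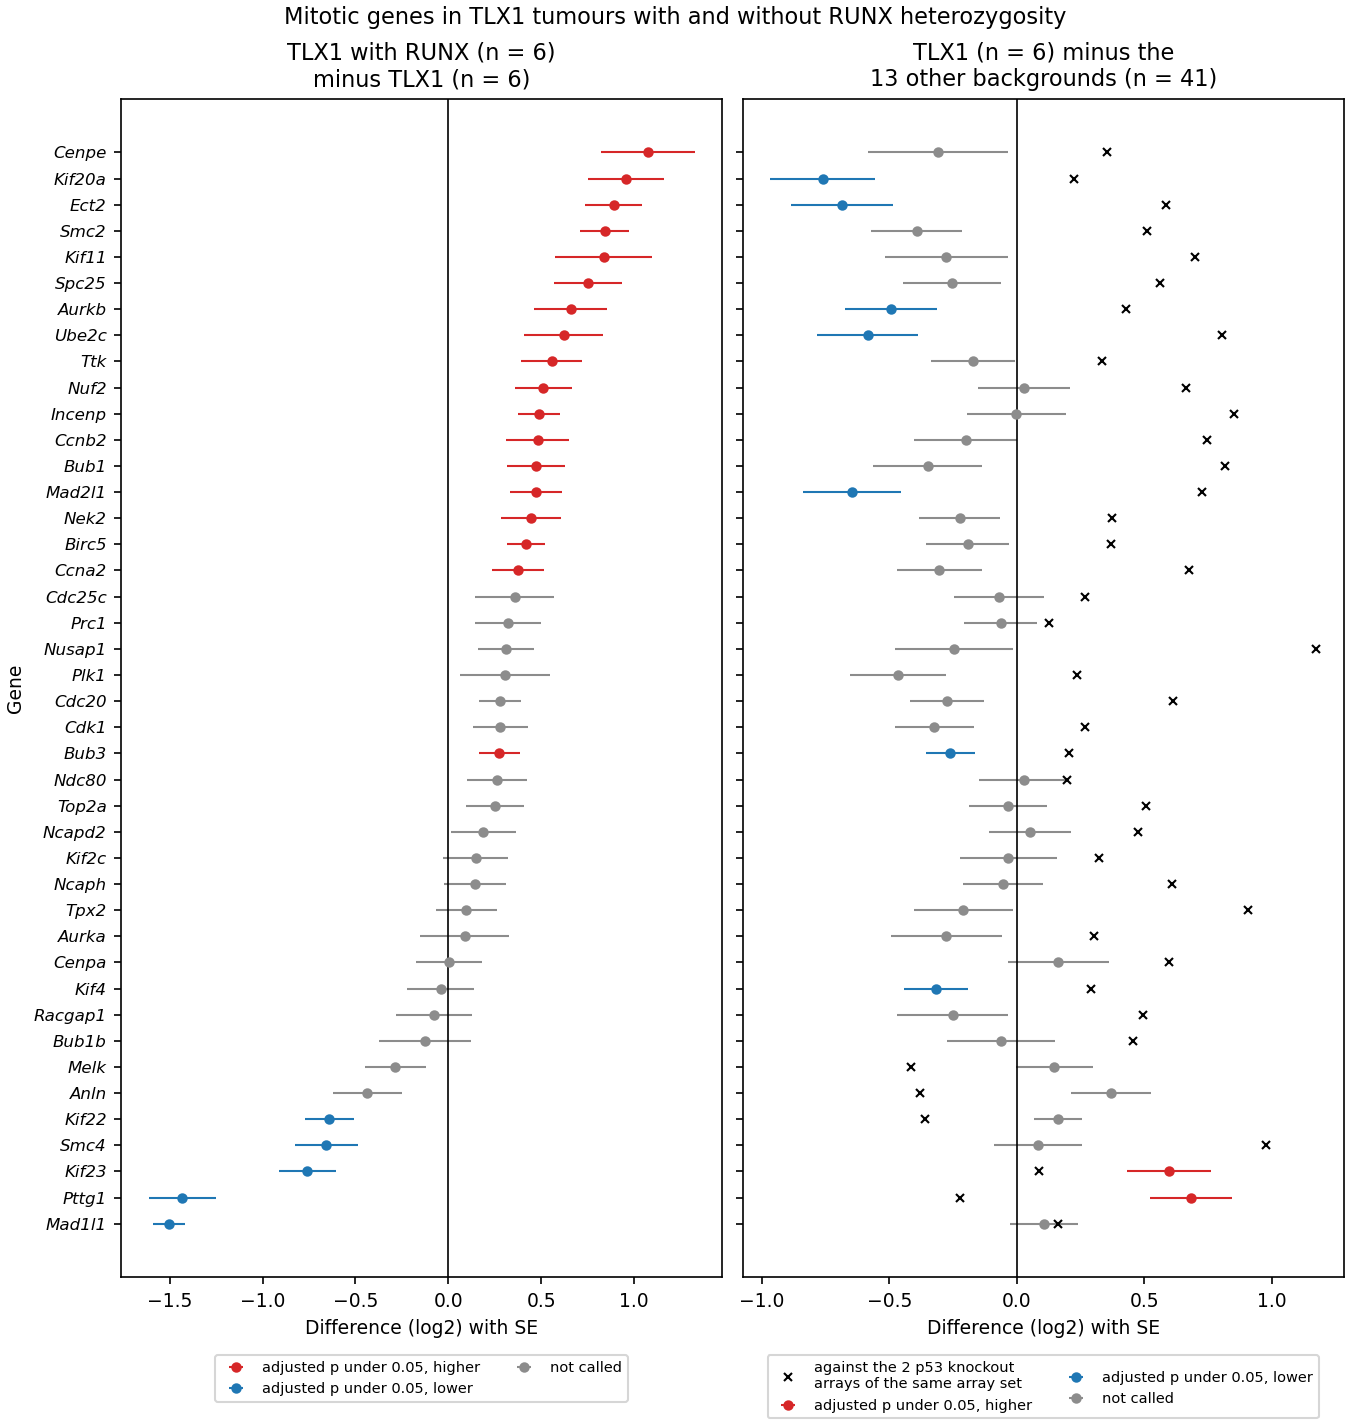
Difference in log2 level with its SE for the 42 genes (y axis), TLX1 with RUNX minus TLX1 (left) and TLX1 minus the 13 other backgrounds (right); colour marks calls by limma. On the right, crosses give TLX1 minus the 2 p53 knockout arrays of the same array set, where 38 of 42 lie above 0.

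The promoters of the members, most of which moved together across arrays, were read from RefSeq (GRCm38.p6), from 250 bases before to 50 after the start of each gene, for the 38 listed genes with an entry. Many mitotic genes are known to carry a CHR element, bound by the DREAM complex (with E2f4, Lin9 and the pocket proteins) or by B-Myb and FoxM1, and CCAAT boxes bound by NF-Y. The CHR letters TTTGAA or TTCGAA, on either strand, were in 27 of 38 member promoters (71.1%) and in 5253 of 27018 promoters of all genes (19.4%). CCAAT, on either strand, was in 27 of 38 (71.1%) and in 37.9% of all. Both were in 24 of 38 (63.2%) and in 7.7% of all. The 8 members with neither were Birc5, Mad1l1, Mad2l1, Melk, Ncaph, Nuf2, Nusap1 and Pttg1. A match of letters describes the sequence only.

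The 150 bases before the start follow for 4 members of different roles that hold both motifs, and for Mad1l1 and Pttg1, the 2 members of largest fall in TLX1 with RUNX tumours, which hold neither. Kif22 and Kif23, also called lower there, hold both motifs. Birc5 (0.42), Mad2l1 (0.47) and Nuf2 (0.51) hold neither and were called higher there. The others with neither, Melk, Ncaph and Nusap1, were not called there. The bases are written in the direction of the gene, with each match to either motif, on either strand, in capitals. The positions are chr10:69352913-69353062 (minus strand) for Cdk1, chr4:118437344-118437493 (minus) for Cdc20, chr2:164769779-164769928 (plus) for Ube2c, chr19:37376232-37376381 (plus) for Kif11, chr5:140321553-140321702 (minus) for Mad1l1 and chr11:43425982-43426131 (minus) for Pttg1.
Cdk1: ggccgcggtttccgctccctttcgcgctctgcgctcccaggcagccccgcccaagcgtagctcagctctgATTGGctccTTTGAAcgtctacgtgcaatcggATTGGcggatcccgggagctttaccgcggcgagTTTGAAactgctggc
Cdc20: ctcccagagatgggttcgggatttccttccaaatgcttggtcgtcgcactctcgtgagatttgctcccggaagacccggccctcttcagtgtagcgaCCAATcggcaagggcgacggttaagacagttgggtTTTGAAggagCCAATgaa
Ube2c: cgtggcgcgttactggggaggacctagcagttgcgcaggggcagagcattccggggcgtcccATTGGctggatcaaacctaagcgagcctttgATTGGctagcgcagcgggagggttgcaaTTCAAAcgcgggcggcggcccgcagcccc
Kif11: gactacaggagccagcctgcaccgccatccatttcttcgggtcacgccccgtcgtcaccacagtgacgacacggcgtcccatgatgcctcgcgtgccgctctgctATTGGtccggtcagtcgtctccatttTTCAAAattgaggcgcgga
Mad1l1: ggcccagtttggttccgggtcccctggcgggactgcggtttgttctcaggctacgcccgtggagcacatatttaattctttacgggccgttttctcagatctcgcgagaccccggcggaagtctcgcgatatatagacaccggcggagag
Pttg1: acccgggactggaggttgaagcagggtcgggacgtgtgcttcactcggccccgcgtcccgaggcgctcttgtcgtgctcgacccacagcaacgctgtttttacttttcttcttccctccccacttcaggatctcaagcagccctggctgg
The CHR letters nearest the start begin 15 bases before it in Cdk1, 18 in Cdc20, 29 in Ube2c and 19 in Kif11. Of these 4 genes, Ube2c and Kif11 were called higher in TLX1 with RUNX tumours, and Cdk1 (0.28, adjusted p = 0.13) and Cdc20 (0.28, adjusted p = 0.0513) were not. In Ikaros plastic tumours Cdc20 (−0.48) and Ube2c (−0.54) were called lower, and Cdk1 (−0.45) and Kif11 (−0.42) were not.

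Genes of the DREAM complex and its partners moved in both directions in TLX1 with RUNX tumours. Of 9 regulators tested, 5 were higher, including the pocket proteins Rbl1 (1.19) and Rbl2 (1.19) and the MuvB subunit Lin9 (1.09), and 4 were lower, including E2f4 (−1.05), the MuvB subunit Lin37 (−0.87) and Mybl2, which encodes B-Myb (−0.65). Among other kinetochore genes 7 of 18 were higher (Mis12, 0.97; Cenpc1, 0.65) and 1 lower (Pmf1, −0.89). Among other spindle and cytokinesis genes 4 of 13 were higher (Kif18a, 1.10; Kifc1, 1.07) and 2 lower (Ckap5, −1.76). Of 10 condensin and cohesin genes 6 were higher (Ncapg2, 0.61; Stag1, 0.54) and 1 lower. Of 34 DNA replication genes 8 were higher (Rfc3, 1.02) and 5 lower (Fen1, −1.61; Tyms, −1.18). Of 8 other mitotic entry genes 3 were higher and 2 lower. Of 13 genes of the anaphase-promoting complex 3 were higher (Ube2s, 0.55) and 5 lower, including Anapc13 (−1.75), Anapc11 (−1.40) and Cdc16 (−1.24). These list counts stand beside 17.9% of all genes higher and 36.3% lower, and those of the anaphase-promoting complex lie near these shares.

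Other readings differed between the same groups. 5 of 10 T lineage markers were lower in TLX1 with RUNX than in TLX1 tumours (median −0.54), as were 3 of 4 erythroid and 3 of 6 B lineage markers. The 18S ribosomal RNA probe read 12.71 in TLX1 with RUNX tumours and 9.15 in TLX1 tumours. The beta-actin ratio was 0.77 ± 0.11 (SD, n = 6) against 1.39 ± 0.62 (n = 6); with it as a covariate 7 members were higher and 5 lower, against 12.8% and 31.3% of all genes. Without TLX1 replicates 5 and 6, the 2 arrays of highest ratio, 11 were higher and 6 lower, against 16.3% and 34.5%. The part of these readings in the member differences was not tested, and the 2 groups lie in different array sets.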

How the data were processed

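Total RNA had been extracted with Trizol and labelled as biotinylated cRNA, per the labels' protocols. The authors deposited linear intensity values, 22690 probe sets on each of 53 arrays. How these were normalized is not stated in any source used here and could change differences in overall level. Values were converted to log2 here. Precision is limited by how many arrays each group has.

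Probe sets were named through the platform's gene table: 20393 carried 1 symbol and 691 several, which were not named; 64 were controls. Each gene was represented by its probe set of highest mean (19 members have several). Genes were kept where 3 or more arrays exceeded their own median. No 2 arrays held identical values (highest Pearson correlation 0.988).

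Groups are the genotype labels. Numbers of the Cdkn2a knockout arrays are in accession order. The members and all lists were chosen with earlier results of these data known. Differences were tested two-sided with limma 3.58.1 (lmFit, eBayes) in R 4.3.3 with p-values adjusted by Benjamini and Hochberg over the 9157 kept genes (threshold 0.05), and the steps were tested on simulated data. The 4 array sets come from complete-linkage clustering on 27 Bacillus control probe sets. With all 45 bacterial and phage controls, used as an alternative, the largest set held 32 arrays. Named were, by rule, up to 8 called members per direction between 2 groups, 3 per direction in single backgrounds, 10 of largest spread over backgrounds, and 3 genes per pathway list and direction, with any member's level or test allowed besides. Alternatives covered the filter, the probe set, scaling, eBayes settings, blocks, covariates and left-out arrays or backgrounds. Promoters were searched and figures drawn with Python 3.11.15, NumPy 2.4.6, pandas 2.3.3 and Matplotlib 3.10.9.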

Additional observations from a re-analysis of the deposited data

Results flagged for a closer look

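Among 129 groups of 4 to 10 arrays examined (42 genes and their average in Cdkn2a knockout, TLX1 and TLX1 with RUNX tumours), 27 held an array far from the others by Dixon's ratio, the gap to the nearest array over the whole range. Chance gives about 1 in 20 for a single group. These groups share arrays and the genes vary together, so the 27 cannot be set against that share. Cdkn2a knockout replicate 8 was the array in 25 of the 27. Its gap was 0.613 of the range for the average of the members. Among kinases and cyclins it was 0.564 for Ccna2, 0.504 for Cdc25c, 0.560 for Nek2 and 0.779 for Melk. Among checkpoint genes it was 0.502 for Ttk, 0.685 for Bub1, 0.596 for Bub1b, 0.546 for Bub3 and 0.621 for Mad2l1.

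The same array had a gap of 0.643 for Ube2c, 0.579 for Aurkb, 0.721 for Birc5 and 0.571 for Incenp. For the kinetochore genes Ndc80 and Spc25 it was 0.600 and 0.615, and for the spindle genes Tpx2, Kif11 and Kif2c it was 0.607, 0.597 and 0.762. Kif23 (0.593), Racgap1 (0.645), Smc2 (0.626), Ncaph (0.664), Ncapd2 (0.643) and Top2a (0.635) complete the list for this array. Cdc20 was far from the others on TLX1 with RUNX replicate 1 (0.804) and Nusap1 on TLX1 replicate 5 (0.655).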

How the results depend on the processing

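The counts of members called kept within 1.5 times of the reported ones under most settings. Shares of all genes are not given for most of these settings. The counts in this section therefore compare member calls between settings only. With the probe set of largest interquartile range, calls summed over the single backgrounds were 29 higher, and TLX1 tumours had 12 members lower. With arrays centred on their medians, the single backgrounds had 80 lower calls (beta-catenin 22, Ikaros plastic 33), and TLX1 with RUNX against TLX1 tumours had 30 higher and 3 lower. Without the p53 knockout background, TLX1 tumours had 12 lower. TLX1 tumours had 0 higher and 0 lower with array set as a block, with a beta-actin covariate, with background as a random block, against only those p53 knockout arrays that share the TLX1 array set, and against the first of those alone. The covariate left 7 members higher in TLX1 with RUNX tumours. Leaving out the 2 arrays of highest beta-actin ratio, chosen after seeing the data, left 0 lower in TLX1 tumours and 11 higher in TLX1 with RUNX tumours.

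31 values of named genes reversed. With the mean of all probe sets, Pttg1 in TLX1 tumours was −0.050 and Smc4 in TLX1 with RUNX tumours 0.30. With the probe set of largest interquartile range, Pttg1 was −0.11 in LMO1 and −0.71 in TLX1 tumours, and Smc4 and Kif22 were 1.09 and 0.12 in TLX1 with RUNX tumours. In TLX1 tumours with array set as a block, and equally with its p53 knockout arrays as the only controls, Pttg1 was −0.22, Kif20a 0.22, Ect2 0.58, Mad2l1 0.73, Ube2c 0.80, Aurkb 0.43, Kif4 0.29 and Bub3 0.20. With the covariate, Mad2l1 was 0.0040, Ube2c 0.28, Aurkb 0.013 and Kif4 0.091. Without the second p53 knockout array, Pttg1 was −0.081, Kif23 −0.12, Mad2l1 0.044, Ube2c 0.83 and Bub3 0.060. The cause was not tested.

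Leaving out 1 array at a time, members called among the 15 backgrounds numbered 26 (without LMO1 with Olig replicate 1) to 38 (without p53 knockout replicate 3), and within the largest set 24 to 34. Single-background calls numbered 13 to 29 higher and 37 to 61 lower, the highest of both without Cdkn2a knockout replicate 8. TLX1 tumours had 2 to 3 higher and 3 to 11 lower, and TLX1 with RUNX against TLX1 tumours 13 to 21 higher and 5 to 6 lower. A left-out array kept the call of named genes in 1526 of 1678 cases and their direction in all 1678.

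Replicate numbers gave no sign of pairing: the correlation of deviations of same-numbered TLX1 and TLX1 with RUNX arrays ran from −0.19 to 0.15, and 1 of 6 correlated best with its own number. With the replicate number as a block, 29 members differed among the 15 backgrounds and 26 within the largest set; single-background calls were 17 higher and 36 lower, TLX1 tumours had 2 higher and 6 lower, and TLX1 with RUNX against TLX1 tumours 15 higher and 6 lower. With the array sets taken from all 45 controls, 39 members differed within the largest set, and 36 were lower in Ikaros plastic tumours. The shares of all genes in those fits are not given, so these counts cannot be set against them.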

Other observations

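The p53 knockout array with the lowest mitotic average did not have all of the genes low. The 5 genes that lay above their own mean there, singled out after their values were seen, were Pttg1, Kif22, Anln, Melk and Kif23. Pttg1, the securin that holds separase inactive, read 12.98 on p53 knockout replicate 2, against 12.70 and 11.94 on the other p53 knockout arrays and a mean of 11.93 over the 53 arrays. Kif22, a chromosome-binding kinesin, read 12.96 there, its highest value on any of the 53 arrays, against 12.74 and 12.40 on replicates 1 and 3. Anln, an actin-binding protein of the cleavage furrow, read 11.49 there, against 11.23 and 11.14. The microtubule-bundling protein Nusap1 read 8.82 on the same array, its lowest value, against 11.06 and 11.46. These are values of 1 array, with no test, and that array also had the lowest T lineage and highest stromal and endothelial marker averages. Replicates 1 and 2 lie in the array set of the TLX1 tumours, and replicate 3 lies in the largest set. The beta-actin ratio was 1.53, 1.09 and 0.27 on p53 knockout replicates 1 to 3. Pttg1, Kif22 and Kif23 have probe sets that disagree, as given above. The part of these readings in the levels was not tested.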
